A study of Mus musculus with 8 samples.

Results

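The genes described here encode the channels that carry sodium, potassium and calcium current across the membrane of neurons and glia, with their auxiliary subunits. They were chosen by symbol: the Kcn, Scn, Cacna, Cacnb, Cacng and Hcn names, without Kcnc1, Kcnc2, Kcna1, Scn1a and Kcne2 and without opposite-strand or pseudogene symbols. The name rule matched 127 genes, and 98 of them, with a total of 100 counts or more over 6 libraries, were kept, out of 34980 genes in all. The rule also takes in potassium channels that are not gated by voltage, the inward rectifiers and the leak channels, as well as the gamma subunits that mostly serve glutamate receptors. All 98 genes passed the filter on low counts and were tested. Just inside the minimum were Kcng2 (116 counts), Hcn4 (136) and Kcne4 (142), and just outside were Kcna5 (96) and Cacna1s (82).

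RNA came from layer IV of the visual cortex, which was cut out under manual dissection in B6D2 mice. The 3 groups were wild-type mice (Otx2 +/+) at postnatal day 30 (P30), wild-type mice at P100, and mice heterozygous for Otx2 (written Otx2 +/- in the sample labels and +/GFP in the design text) at P30. Each group had 2 libraries, the tissue of 4 mice was pooled per condition, and 2 heterozygous P100 samples were not analysed here. Nothing in the labels tells if the pair of libraries in a group came from separate pools, and the p-values therefore reflect only library-to-library spread, which may be technical.

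Voltage-gated sodium channels start the action potential, potassium channels of the Kv families end it and set firing rate, and calcium channels turn it into transmitter release and calcium signals in the dendrite. HCN, inward rectifier and two-pore-domain channels set the resting potential and the excitability below threshold. Auxiliary subunits decide how many channels reach the membrane and how fast they open and inactivate. In the cortex, expression of many of these genes is known to shift during postnatal maturation, as action potentials become brief and cells become able to fire fast.

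Depth was 11016841 to 15308781 counts per library over genes, of which the 98 channel genes took 1.06% to 1.14%. The layer 4 marker Rorb stood at 497 to 581 CPM (the count scaled to library size), against 15.8 to 31.4 CPM for the layer 5 marker Fezf2 and 1.76 to 6.84 CPM for the layer 6 marker Foxp2. The 8 layer 5 markers summed to 316 and 287 CPM at wild-type P30 and 310 and 237 CPM at P100. In heterozygotes they summed to 386 and 347 CPM, with 2 of 8 higher than in either wild-type group (edgeR adjusted p under 0.05). The 8 layer 6 markers summed to 71.4 and 61.7 CPM, 67.0 and 55.9 CPM, and 83.1 and 76.9 CPM in the same order. Of 8 layer 4 markers, 3 were lower and 1 higher in heterozygotes than at wild-type P100. The groups also differed in other ways that touch every comparison below. Summed levels of 14 activity-regulated genes were 2612 and 3172 CPM at wild-type P30, 542 and 634 CPM at wild-type P100, and 522 and 831 CPM in heterozygotes. Summed levels of 10 markers of myelinating oligodendrocytes were 3363 and 3221 CPM, 1848 and 1560 CPM, and 2322 and 2389 CPM in the same order. Heterozygous libraries had 785 and 924 CPM of Xist and 2.48 and 1.04 CPM of the Y-linked gene Ddx3y, against 0.264 to 0.639 CPM and 146 to 156 CPM in wild type, so genotype and sex cannot be told apart. Heterozygous replicate 2 alone held choroid plexus RNA, with 8966 counts of Ttr against 0 or 1 elsewhere. The part of these differences in the results below was not tested, and in pooled tissue fewer cells of a type and less RNA per cell cannot be told apart.

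Sequences of 7 promoters are shown for some of the genes called below: 3 KChIP genes that code for partners of one potassium channel family, the inward rectifier gene Kcnj2, and 3 calcium channel genes. Each is the stretch of 250 bases before the RefSeq start site (GRCm38.p6, which is mm10) nearest to the transcript counted, and none of them overlaps an annotated exon. The stretch for Kcnd3 overlapped an annotated exon and none was matched for Cacna1a, and neither gene is shown. Capitals mark GGGCGG, the box bound by Sp factors, and TGACG, the core of the cAMP response element, on either strand.
Kcnip1 promoter, chr11:33843687-33843936, minus strand: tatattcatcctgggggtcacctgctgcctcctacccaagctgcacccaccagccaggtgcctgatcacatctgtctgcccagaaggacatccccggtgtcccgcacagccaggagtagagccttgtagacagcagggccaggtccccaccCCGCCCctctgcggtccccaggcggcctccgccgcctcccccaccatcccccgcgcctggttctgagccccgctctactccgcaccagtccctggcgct
Kcnip2 promoter, chr19:45816064-45816313, minus strand: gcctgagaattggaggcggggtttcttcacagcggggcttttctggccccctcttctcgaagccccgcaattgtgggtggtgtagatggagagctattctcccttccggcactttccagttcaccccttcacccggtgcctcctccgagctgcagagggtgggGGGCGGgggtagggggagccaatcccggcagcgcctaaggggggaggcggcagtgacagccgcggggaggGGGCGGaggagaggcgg
Kcnip3 promoter, chr2:127521393-127521642, minus strand: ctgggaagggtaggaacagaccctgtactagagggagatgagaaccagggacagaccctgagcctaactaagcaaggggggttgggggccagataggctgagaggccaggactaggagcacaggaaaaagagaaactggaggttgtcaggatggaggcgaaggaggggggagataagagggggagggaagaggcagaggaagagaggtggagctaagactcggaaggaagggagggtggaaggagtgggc
Kcnj2 promoter, chr11:111065914-111066163, plus strand: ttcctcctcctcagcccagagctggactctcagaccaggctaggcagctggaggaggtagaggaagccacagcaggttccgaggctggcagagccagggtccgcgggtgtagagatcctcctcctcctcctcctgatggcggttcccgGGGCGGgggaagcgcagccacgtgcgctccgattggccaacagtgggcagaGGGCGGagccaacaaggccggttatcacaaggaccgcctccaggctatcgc
Cacna1b promoter, chr2:24763153-24763402, minus strand: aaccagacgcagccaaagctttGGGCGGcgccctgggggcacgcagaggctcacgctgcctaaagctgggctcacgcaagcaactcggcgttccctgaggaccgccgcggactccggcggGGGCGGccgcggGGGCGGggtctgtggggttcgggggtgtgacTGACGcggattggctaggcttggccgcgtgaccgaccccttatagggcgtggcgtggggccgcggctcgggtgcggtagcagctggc
Cacna1i promoter, chr15:80286988-80287237, plus strand: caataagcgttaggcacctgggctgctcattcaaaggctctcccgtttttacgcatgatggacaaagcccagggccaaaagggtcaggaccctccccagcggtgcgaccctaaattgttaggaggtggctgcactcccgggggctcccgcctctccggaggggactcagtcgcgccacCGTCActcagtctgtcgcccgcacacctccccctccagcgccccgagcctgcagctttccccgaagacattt
Cacna2d3 promoter, chr14:29721865-29722114, minus strand: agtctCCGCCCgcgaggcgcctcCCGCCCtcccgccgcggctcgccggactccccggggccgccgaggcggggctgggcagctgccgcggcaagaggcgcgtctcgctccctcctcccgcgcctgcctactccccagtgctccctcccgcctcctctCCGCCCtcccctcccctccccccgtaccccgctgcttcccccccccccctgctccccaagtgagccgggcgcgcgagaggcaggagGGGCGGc
Windows were matched for 69 of the 98 channel genes, and 39 of them (56.5%) held GGGCGG, against 33.0% of 32536 windows of the same length over all genes. TGACG was in 12 (17.4%), against 17.9% of all windows, and the full element TGACGTCA, which contains it, was in 0 of 69, against 1.56%. The AP-1 motif TGANTCA was in 1 (against 6.73% of all windows), the Egr motif GCGTGGGCG in 1 (0.541%) and the Otx motif TAATCC in 2 (6.25%). Of the 7 promoters shown, those of Kcnip1, Kcnip2, Kcnj2, Cacna1b and Cacna2d3 held GGGCGG, those of Cacna1b and Cacna1i held TGACG, and that of Kcnip3 held neither. These matches describe letters in a window and are not binding sites.

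Between P30 and P100 in wild-type cortex, 5 channel genes rose and 8 fell. The risers were Kcnd3, Kcnip1, Kcnip3, Kcnj2 and Scn4b, and the fallers were Cacna1a, Cacna1b, Cacna1i, Cacng4, Kcne4, Kcng4, Kcnh5 and Kcnip2. The 13 called genes were 13.3% of the channel genes, against 7.54% of all 15841 genes tested (475 genes higher, and 4.54% of genes lower; edgeR quasi-likelihood test, Benjamini-Hochberg adjusted p under 0.05). Among genes with a mean of at least 10 CPM the shares were 12.8% of 78 channel genes and 9.90% of 9630 genes. The changes were small, as over all genes: 92 of 98 channel genes (93.9%) differed less than 1.5-fold, against 89.2% of all genes. The median of all 98 was -0.03 on the log2 scale, against 0.00 over all genes. Groups did not overlap for 48 of the 98 genes, against 51.2% of all genes. Leaving out P100 replicate 2 gave 1 higher and 3 lower, and leaving out P100 replicate 1 gave 4 and 2. Leaving out wild-type P30 replicate 1 gave 2 and 3, P30 replicate 2 gave 5 and 2, and heterozygous replicate 1 gave 5 and 5. DESeq2 gave 3 higher and 4 lower.

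**Figure D1:**
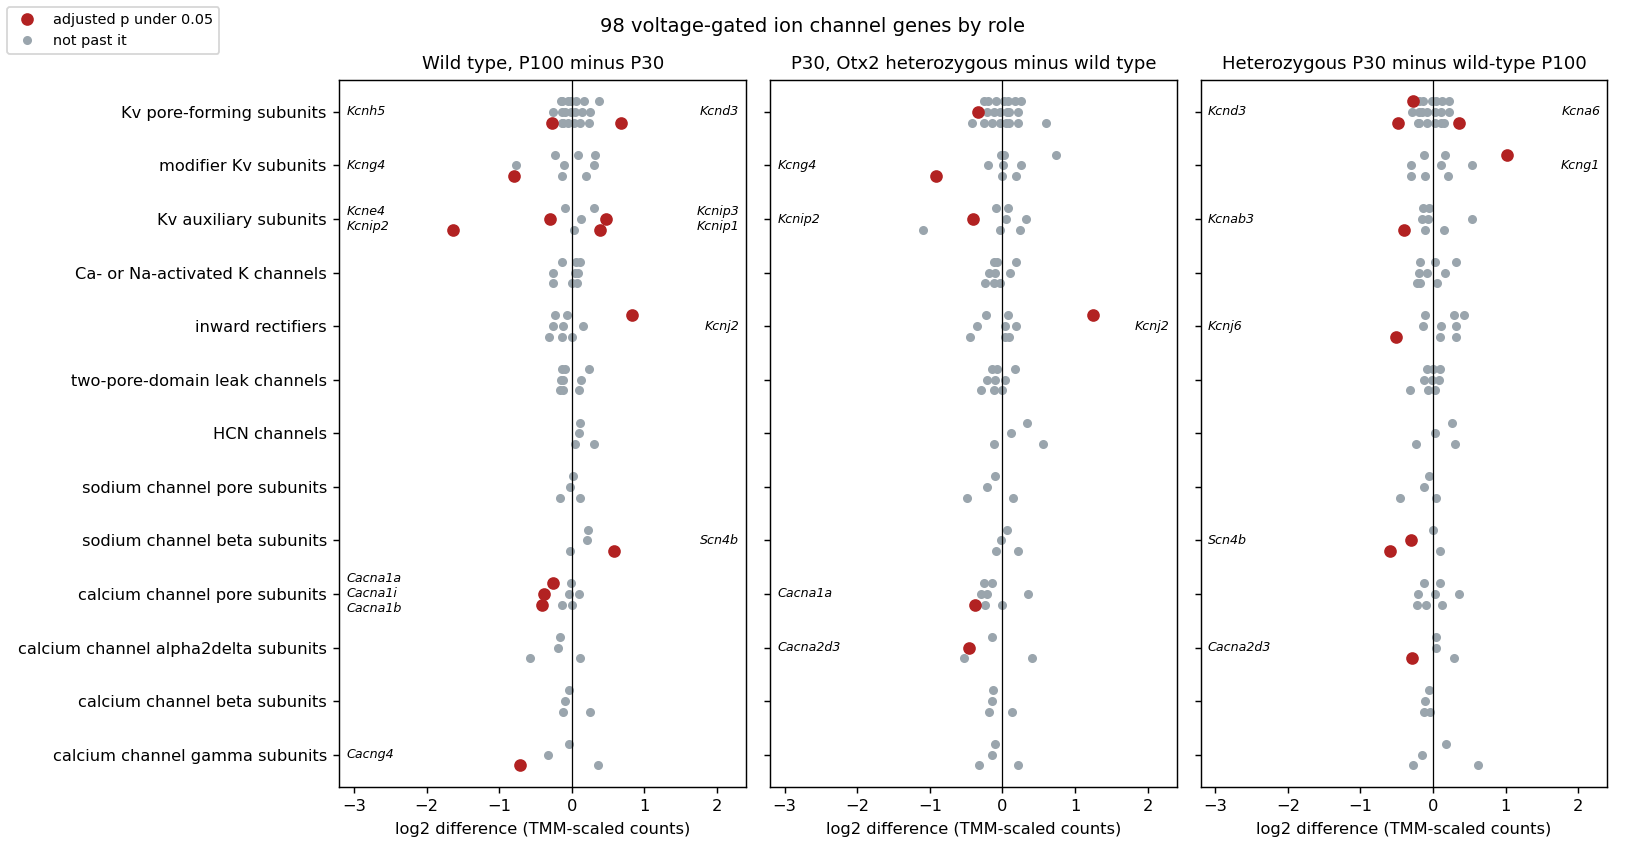
Log2 difference in level (horizontal axes, TMM-scaled counts) of each of the 98 channel genes, 1 point per gene, by role (rows) in the 3 comparisons (panels). Large red points are genes with an edgeR adjusted p under 0.05, most of them named at the side of their direction: 13 in the left panel, 6 in the middle and 9 in the right, while most genes lie close to 0.

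The clearest rise with age was that of Kcnd3, which encodes the A-type potassium channel Kv4.3. A-type channels open below threshold and inactivate quickly, and so delay spikes and damp back-propagation into dendrites. Kcnd3 (ENSMUSG00000040896, chromosome 3, 105452330 to 105674002, plus strand, mm10) stood at 81.3 and 89.3 CPM in the P30 wild-type libraries, 143 and 128 CPM at P100, and 95.2 and 97.4 CPM in the heterozygous libraries. Both P100 libraries were above the other 4. The log2 difference with age was 0.67 (SE 0.08, 1.59-fold, adjusted p = 3.07e-04), and the call was kept under all 16 alternatives of processing (adjusted p 6.96e-11 to 0.0108). All 5 transcripts of the gene were higher at P100, by 0.42 to 0.67 on the log2 scale. In heterozygotes the difference from wild-type P30 was 0.17 (SE 0.08, adjusted p = 0.297).

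The other pore-forming genes of this family did not pass the test. Kcnd2 (Kv4.2) was at 181 and 203 CPM, 208 and 224 CPM, and 226 and 219 CPM in wild-type P30, wild-type P100 and heterozygous libraries, with log2 differences of 0.17 for age (SE 0.07, adjusted p = 0.194) and 0.21 for genotype (SE 0.07, adjusted p = 0.149). Kcnd1 was low, at 4.47 to 6.44 CPM over the 6 libraries.

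KChIP proteins, encoded by Kcnip1 to Kcnip4, are calcium-binding partners that bring Kv4 channels to the membrane and slow their inactivation. With age, Kcnip1 and Kcnip3 rose and Kcnip2 fell. Kcnip3 (also known as DREAM, chromosome 2) was at 135 and 164 CPM at P30, 189 and 202 CPM at P100, and 170.0 and 184 CPM in heterozygotes (log2 difference with age 0.39, SE 0.09, 1.31-fold, adjusted p = 0.0182). Kcnip1 (chromosome 11), present mainly in interneurons, was at 16.1 and 19.3 CPM, 24.0 and 25.2 CPM, and 21.6 and 23.0 CPM (0.47, SE 0.12, 1.38-fold, adjusted p = 0.0343). For both genes the heterozygous libraries lay between the other groups, with no overlap, and neither passed the test between genotypes (0.24, adjusted p = 0.168 for Kcnip3, and 0.33, adjusted p = 0.176 for Kcnip1). The Kcnip3 call did not hold without wild-type P30 replicate 1, P100 replicate 1 or P100 replicate 2 (adjusted p 0.0668 to 0.146), and the Kcnip1 call without the same libraries (0.101 to 0.169), in DESeq2 (0.0869) and with only the 4 libraries compared (0.0512). Summed levels of 10 parvalbumin interneuron markers were 952 to 970 CPM at P30 and 1033 to 1120 CPM at P100, with 2 of 10, Erbb4 and Syt2, higher. Markers of other interneurons, 10 in all, summed to 971 and 974 CPM at P30 and 852 and 978 CPM at P100. None of these passed the test with age.

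Kcnip2 went the other way. It stood at 91.6 and 94.2 CPM in wild-type P30 libraries, 74.2 and 76.3 CPM at P100, and 74.9 and 64.6 CPM in heterozygotes, so that wild-type P30 was above the other groups. The fall with age was 0.30 on the log2 scale (-0.30, SE 0.09, adjusted p = 0.0494) and the fall in heterozygotes was 0.41 (-0.41, SE 0.09, 1.33-fold, adjusted p = 0.0195). The 2 comparisons share the wild-type P30 libraries. The age call was lost under 11 of 16 alternatives (adjusted p 0.0501 to 0.1998), among them each omission of a wild-type library (0.112 to 0.1998) and of heterozygous replicate 1 (0.0544). The genotype call did not hold without wild-type P30 replicate 2 (0.114) or heterozygous replicate 2 (0.189). The transcript counted for Kcnip2 is annotated as a retained intron, but all 10 transcripts of the gene were lower with age (-0.51 to -0.08) and in heterozygotes (-0.45 to -0.23). Kcnip4, at 29.8 to 36.0 CPM over the 6 libraries, passed in neither comparison (-0.10 and 0.05).

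Of the remaining auxiliary subunits, Kcne4 fell with age. It encodes a single-span subunit that inhibits some Kv channels, and it was low throughout: 2.83 and 3.13 CPM at wild-type P30, 0.651 and 1.32 CPM at P100, and 1.27 and 1.497 CPM in heterozygotes. The difference with age was -1.63 (SE 0.37, 3.09-fold, adjusted p = 0.0184), the largest of the 98 genes, and in heterozygotes it was -1.10 (SE 0.34, adjusted p = 0.099). Kcne4 is also expressed in vascular muscle, and 8 pericyte and smooth muscle markers summed to 297 to 300.2 CPM at wild-type P30, 233 to 238 CPM at P100 and 270.0 to 294 CPM in heterozygotes. The call was lost in DESeq2 (adjusted p = 0.0682), with summed transcripts (0.0566), and without either wild-type P30 replicate or P100 replicate 1 (0.0521 to 0.156). The 3 beta subunit genes of Kv1 channels, Kcnab1, Kcnab2 and Kcnab3, passed in neither of the 2 comparisons with wild-type P30.

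**Figure D2:**
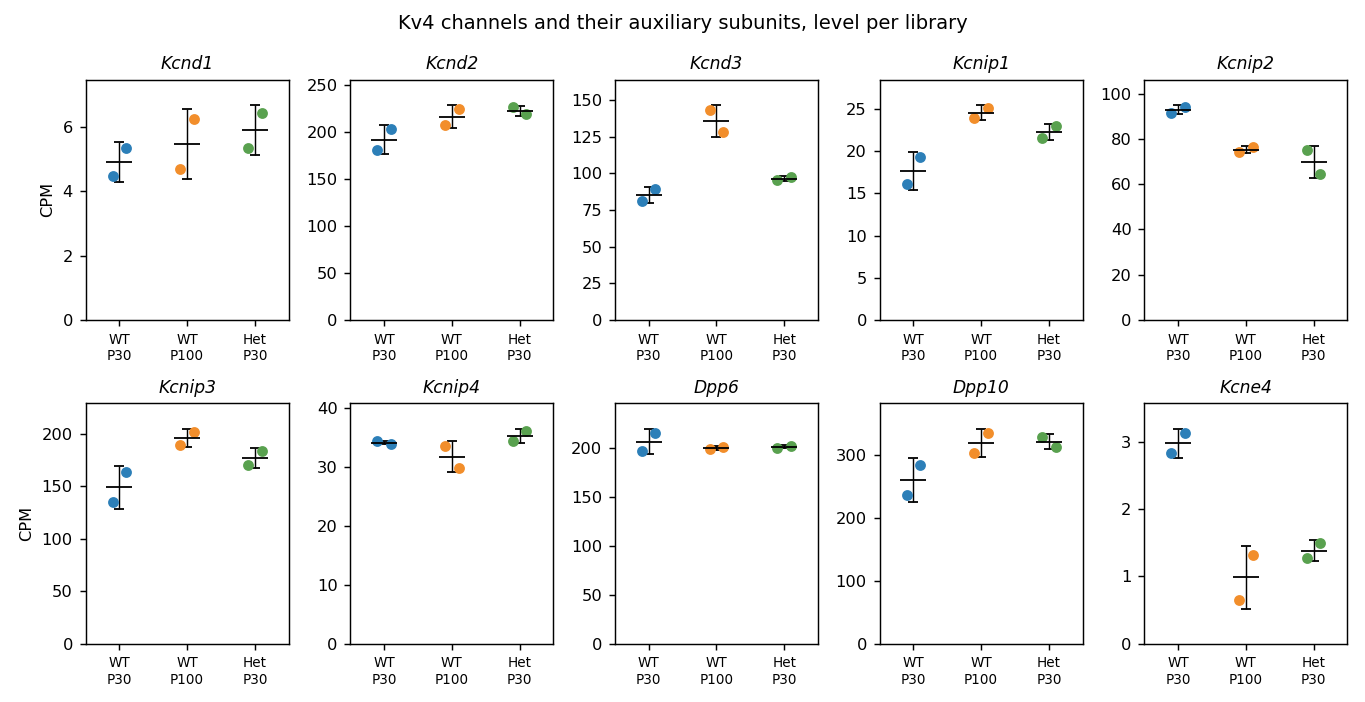
Level (vertical axes, CPM, starting at 0) of Kv4 genes, KChIP genes, the Kv4 partners Dpp6 and Dpp10, and Kcne4 in each library; points are the 2 libraries of a group, and the bar and whiskers are their mean and SD. Kcnd3 is at 128 to 143 CPM at wild-type P100 and 81.3 to 97.4 CPM elsewhere, and Kcnip2 is highest at wild-type P30.

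Of the 8 pore genes of calcium channels, 3 fell with age, Cacna1a, Cacna1b and Cacna1i, and 1, Cacna1a, fell in heterozygotes. Over all genes tested, 4.54% fell with age and 2.32% in heterozygotes. Cacna1a encodes the pore of P/Q-type channels and Cacna1b that of N-type channels, the 2 types that trigger transmitter release. Cacna1a (ENSMUSG00000034656, chromosome 8, 84388440 to 84640246, plus strand) stood at 221 and 240.3 CPM at wild-type P30, 176 and 172 CPM at P100, and 165 and 191 CPM in heterozygotes. Wild-type P30 was above all 4 other libraries, and the P100 values lay within the heterozygous range. The log2 difference was -0.41 with age (SE 0.08, 1.32-fold, adjusted p = 0.00828) and -0.38 for genotype (SE 0.08, 1.30-fold, adjusted p = 0.020). All 9 Cacna1a transcripts with a mean of at least 1 CPM were lower in both comparisons. Omitting wild-type P30 replicate 2 or either P100 replicate ended the age call (adjusted p 0.0547 to 0.0834). The genotype call did not hold without wild-type P30 replicate 2 (0.154) or heterozygous replicate 1 (0.279), and with summed transcripts (0.0694).

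Cacna1b (chromosome 2) was at 197 and 203 CPM, 166.8 and 166.7 CPM, and 176 and 188 CPM in the same order of groups, with a difference of -0.26 for age (SE 0.07, 1.20-fold, adjusted p = 0.0325) and -0.14 for genotype (SE 0.07, adjusted p = 0.321). Its age call was lost under 8 of 16 alternatives, with every omission of 1 library (adjusted p 0.051 to 0.158), with summed transcripts (0.0563) and with only the 4 libraries compared (0.0567). Cacna1i, the low-threshold T-type channel Cav3.3 that supports burst firing, was at 174 and 165 CPM, 134 and 124 CPM, and 131 and 144 CPM. It fell with age (-0.39, SE 0.08, 1.31-fold, adjusted p = 0.0085), and its genotype difference of -0.30 (SE 0.08, 1.23-fold) lay at the threshold, with an adjusted p = 0.0502 that was 0.0488 with RLE scaling, 0.0491 in DESeq2, 0.0465 with a replicate block and 0.0143 without a filter, but 0.453 without heterozygous replicate 1. The age call did not hold without wild-type P30 replicate 1 (0.054) or P100 replicate 2 (0.106). All 6 Cacna1i transcripts were lower in both comparisons.

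The other 5 pore genes of calcium channels did not pass in either of these comparisons. Cacna1e (R-type) was the most abundant pore gene per length, at 32.9 CPM per kilobase of transcript, and stood at 423 and 455 CPM, 454 and 424 CPM, and 364 and 389 CPM, with differences of 0.00 and -0.22 (adjusted p = 0.996 and 0.108). The L-type genes Cacna1c and Cacna1d had age differences of -0.04 and 0.10. Cacna1g, another T-type gene, was at 96.6 and 100.2 CPM, 88.8 and 90.5 CPM, and 82.7 and 82.6 CPM, without overlap between any 2 groups, and differences of -0.14 and -0.25 (adjusted p = 0.304 and 0.0864). Of the 8 pore genes, 7 were lower in heterozygotes by estimate, the exception being Cacna1h (0.35, adjusted p = 0.175), and the median was -0.23, against 0.00 over all genes.

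Alpha2delta subunits carry calcium channels to the membrane and the presynaptic terminal. Cacna2d3 (ENSMUSG00000021991, chromosome 14, 28904943 to 29721864, minus strand) fell in heterozygotes. It was at 200.3 and 191 CPM at wild-type P30, 171 and 177 CPM at P100, and 143 and 142 CPM in heterozygotes, and no 2 groups overlapped. The genotype difference was -0.46 (SE 0.07, 1.37-fold, adjusted p = 0.0021), kept under all 16 alternatives (adjusted p 2.79e-06 to 0.0231), whereas the age difference was -0.17 (SE 0.07, adjusted p = 0.151). Cacna2d1 had the highest level per length of the calcium channel genes (132 CPM per kilobase) and went from 542 and 581 CPM to 487 and 500 CPM with age and to 517 and 494 CPM in heterozygotes, passing in neither comparison (adjusted p = 0.102 and 0.247). Cacna2d2 was at 25.6 and 23.4 CPM at wild-type P30, 26.9 and 25.7 CPM at P100 and 32.0 and 32.2 CPM in heterozygotes, where its difference of 0.40 had an adjusted p = 0.0558. The fourth member, Cacna2d4, was low, at 2.75 to 4.59 CPM, with differences of -0.57 and -0.53 (adjusted p = 0.188 and 0.275).

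Beta subunits, which chaperone the pore, gave no call in either comparison by edgeR, DESeq2 or limma-voom, with 1 of 4 genes at an unadjusted p under 0.05 in each. Cacnb4 was the most abundant, at 544 to 656 CPM, with 17.4% of its exon bases shared with exons on the opposite strand. Among gamma subunits, which include the TARPs that bind AMPA receptors, Cacng4 fell with age, from 8.49 and 10.98 CPM to 6.66 and 5.19 CPM, against 8.38 and 9.96 CPM in heterozygotes (-0.72, SE 0.20, 1.64-fold, adjusted p = 0.0413). Oligodendrocyte precursors are known to express Cacng4, and 4 of 8 precursor markers fell with age and 0 with genotype, with summed levels of 229 and 227 CPM, 150.5 and 129 CPM, and 225 and 244 CPM. The Cacng4 call was lost in DESeq2 (adjusted p = 0.11), limma-voom (0.0517), with summed transcripts (0.0906), with only the 4 libraries compared (0.0536), and without wild-type P30 replicate 2, P100 replicate 1 or P100 replicate 2 (0.0743 to 0.258). Cacng2 (stargazin) and Cacng3 stood at 55.9 to 80.2 CPM and 43.2 to 68.1 CPM and passed in neither.

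**Figure D3:**
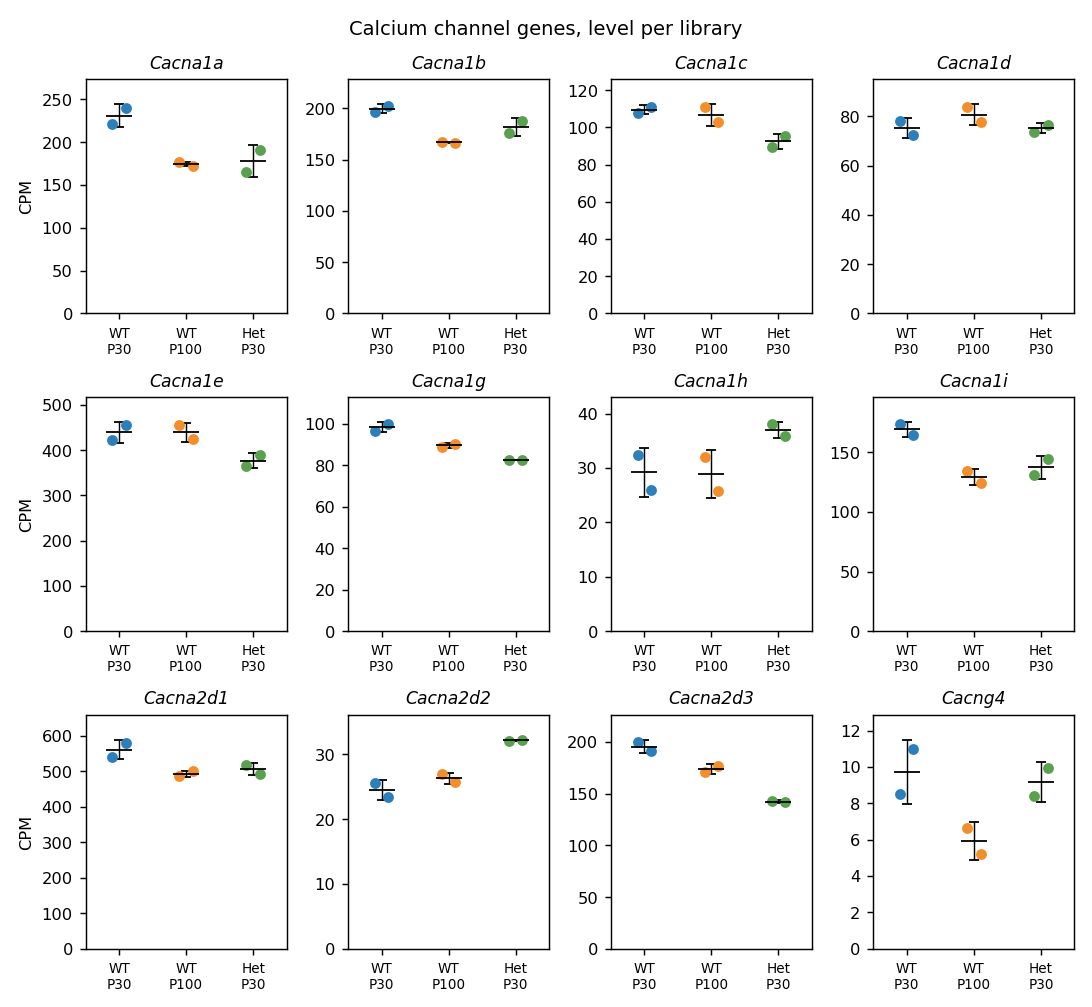
Level (vertical axes, CPM, starting at 0) of 8 calcium channel pore genes, 3 alpha2delta genes and Cacng4 in each library; points are the 2 libraries of a group, and the bar and whiskers are their mean and SD. Cacna1a is highest at wild-type P30 (221 to 240.3 CPM), and Cacna2d3 is lowest in the heterozygous libraries (142 to 143 CPM).

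The second comparison, heterozygous against wild-type cortex at P30, gave 1 rise and 5 falls among the channel genes. Kcnj2 rose, and Cacna1a, Cacna2d3, Kcng4 and Kcnip2 were among those that fell. The 6 called genes were 6.12% of the channel genes, against 3.23% of all genes tested (0.903% higher and 2.32% lower). Among genes with a mean of at least 10 CPM, 6.41% of the channel genes and 4.28% of all genes were called. The median log2 difference of the 98 genes was -0.06, against 0.00 over all genes. Of the 98, 93 (94.9%) differed less than 1.5-fold, against 91.6% of all genes. Groups did not overlap for 60 of the 98 genes, against 48.9% of all genes. Leaving out heterozygous replicate 2, the library with choroid plexus RNA, gave 1 higher and 3 lower, leaving out heterozygous replicate 1 or wild-type P30 replicate 2 gave 1 and 2, and no filter on low counts gave 2 and 15.

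Kcnj2, which encodes the inward rectifier Kir2.1, was the largest rise in both comparisons with wild-type P30. Kir2.1 holds the membrane near the potassium equilibrium potential and so lowers excitability at rest. Kcnj2 (ENSMUSG00000041695, chromosome 11, 111066164 to 111076821, plus strand) had 30.4 and 38.7 CPM at wild-type P30, 54.7 and 68.7 CPM at P100, and 95.7 and 69.0 CPM in heterozygotes. Both wild-type P30 libraries were below the other 4, and the 2 heterozygous libraries were above those of P100. The difference was 1.25 for genotype (SE 0.16, 2.37-fold, adjusted p = 6.13e-04), kept under all 16 alternatives (log2 0.99 to 1.46, adjusted p 2.54e-29 to 0.0140). For age it was 0.83 (SE 0.16, 1.77-fold, adjusted p = 0.00738), with the call lost without wild-type P30 replicate 1 (0.0546) or P100 replicate 2 (0.0986). Between heterozygous P30 and wild-type P100 it was 0.42 (SE 0.15, adjusted p = 0.134).

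The other inward rectifiers did not pass in either comparison. Kcnj3 and Kcnj9, subunits of the G-protein-gated GIRK channels, were the most abundant per length, at 60.4 and 70.0 CPM per kilobase, with differences of 0.00 and -0.07 for age and 0.09 and 0.03 for genotype. For Kcnj3, 31.1% of the exon bases were shared with exons on the opposite strand. Kcnj6, another GIRK subunit gene, was at 67.1 and 73.7 CPM, 74.0 and 83.2 CPM, and 50.9 and 59.5 CPM, lowest in heterozygotes, with a difference from wild-type P30 of -0.35 (SE 0.10, adjusted p = 0.076). Kcnj10 and Kcnj16, the astrocyte channels that buffer potassium, were at 56.9 to 102 CPM and 31.5 to 48.0 CPM, and the 2 P100 libraries of Kcnj10 (56.9 and 97.1 CPM) spanned most of that range. Two-pore-domain leak channels gave 0 calls of 9 in either comparison (edgeR, DESeq2 and limma-voom), with 0 and 1 at an unadjusted p under 0.05, and Kcnk1 was the most abundant (59.5 CPM per kilobase).

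Among the pore genes of Kv channels besides Kcnd3, Kcnh5 fell with age. Kcnh5 (Kv10.2, of the ether-a-go-go family) is also a layer 4 marker. It went from 291 and 285 CPM to 229 and 250.4 CPM with age (-0.27, SE 0.07, 1.20-fold, adjusted p = 0.0353), with 250.01 and 268 CPM in heterozygotes. Its call was lost under 7 of 16 alternatives, among them the omission of each wild-type library (0.0686 to 0.215) and of heterozygous replicate 1 (0.0505). Summed levels of 8 layer 4 markers, Kcnh5 among them, were 1153 and 1261 CPM at wild-type P30 and 1154 and 1225 CPM at P100.

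Of the 22 pore genes in this group, 1 rose and 1 fell with age and 1 fell in heterozygotes, and the median was -0.01 in both comparisons. Kcna2, the Kv1.2 gene of axons, was at 177 to 205 CPM over the 6 libraries (0.06 and -0.09).

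Modifier subunits form no channel alone and tune other Kv channels. Kcng4 (Kv6.4) fell in both comparisons: it was at 10.1 and 9.94 CPM at wild-type P30, 4.56 and 7.22 CPM at P100, and 4.89 and 5.79 CPM in heterozygotes, with wild-type P30 above the other 4 libraries. The differences were -0.79 for age (SE 0.21, 1.72-fold, adjusted p = 0.037) and -0.91 for genotype (SE 0.21, 1.87-fold, adjusted p = 0.0289). The age call was lost in DESeq2 (0.099), with summed transcripts (0.132) and without either wild-type P30 library or P100 replicate 1 (0.11 to 0.248). The genotype call was lost in DESeq2 (0.0613), with summed transcripts (0.125) and without any 1 of the 4 libraries compared (0.052 to 0.210). Kcnv1 and Kcnf1 were the most abundant modifiers per length (50.5 and 37.2 CPM per kilobase) and passed in neither comparison.

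Sodium channel genes moved in 1 case. Scn4b, whose beta-4 subunit provides the blocking particle of the resurgent current in fast-firing cells, rose with age from 57.8 and 48.1 CPM to 69.8 and 88.4 CPM, with 60.1 and 44.5 CPM in heterozygotes. The age difference was 0.58 (SE 0.14, 1.5-fold, adjusted p = 0.0259) and the genotype difference was -0.02 (SE 0.14, adjusted p = 0.973). The call was lost in DESeq2 (0.156), with summed transcripts (0.0786) and without wild-type P30 replicate 2 (0.164) or P100 replicate 2 (0.242). The pore genes Scn8a (Nav1.6), Scn3a, Scn7a and Scn9a gave 0 calls in either comparison by edgeR, DESeq2 or limma-voom, with 0 at an unadjusted p under 0.05 for age and 1 for genotype. Scn8a was at 555 to 658 CPM over the 6 libraries.

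Pacemaker and calcium-activated channels gave no call. The 4 HCN genes, which carry the h-current, had age differences of 0.04 to 0.30 and genotype differences of -0.12 to 0.56, with 0 calls by edgeR, DESeq2 or limma-voom and 0 and 1 genes at an unadjusted p under 0.05. Hcn2, the most abundant per length, was at 61.5 to 75.8 CPM. The 9 calcium- or sodium-activated potassium channel genes had 0 calls by the same 3 tools and 1 gene at an unadjusted p under 0.05 in each comparison. Kcnma1, the pore of BK channels, was at 258 to 319 CPM (0.09 and -0.12). For its partner Kcnmb4 76.7% of exon bases were shared with exons on the opposite strand.

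**Figure D4:**
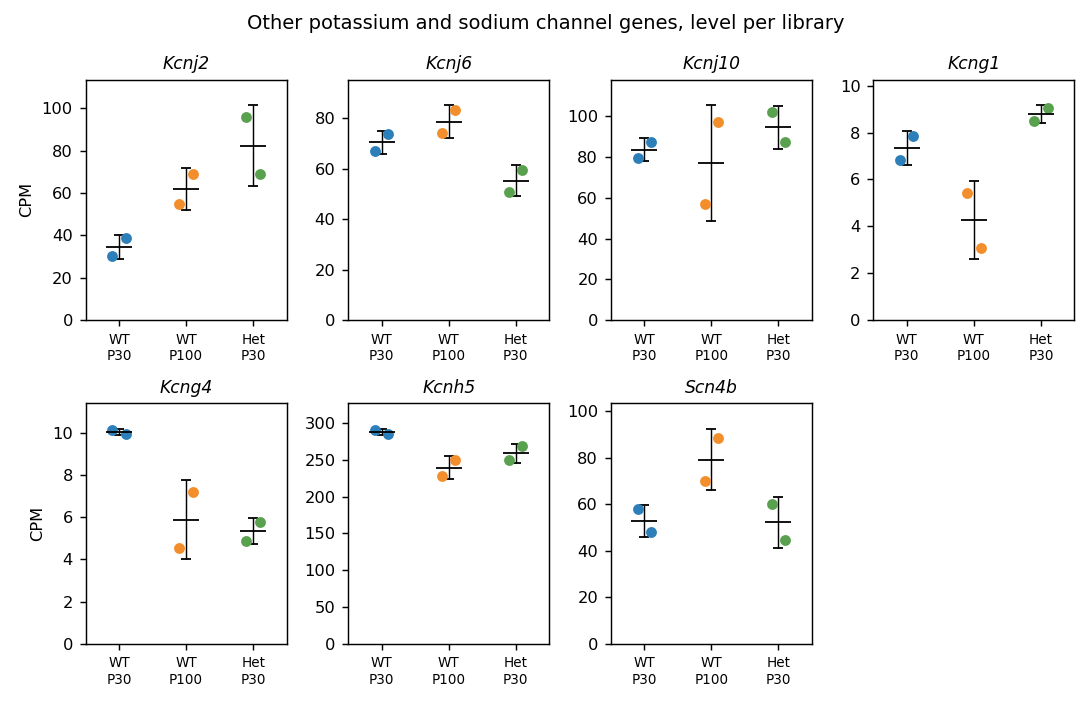
Level (vertical axes, CPM, starting at 0) of 7 other potassium and sodium channel genes in each library; points are the 2 libraries of a group, and the bar and whiskers are their mean and SD. Kcnj2 is lowest at wild-type P30 (30.4 to 38.7 CPM), and Scn4b is highest at wild-type P100 (69.8 to 88.4 CPM).

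Set directly against wild-type P100, the heterozygous P30 libraries differed in 9 channel genes, 2 higher and 7 lower. Age, genotype and sex cannot be told apart in this comparison, and it shares its libraries with the other 2. The 9 genes were 9.18% of the channel genes, against 5.10% of all genes tested (2.44% higher and 2.66% lower). Kcng1, a modifier subunit gene, was higher in heterozygotes, at 8.51 and 9.05 CPM against 5.43 and 3.08 CPM (1.02, SE 0.23, 2.03-fold, adjusted p = 0.0187). Kcna6 (Kv1.6) was higher too, at 96.3 and 92.9 CPM against 73.8 and 73.9 CPM (0.36, SE 0.09, adjusted p = 0.0317), with 40.2% of its exon bases shared with exons on the opposite strand. The transcript counted for Kcna6 is annotated as a target of nonsense-mediated decay, but all 3 transcripts of the gene were higher (0.28 to 0.36). Kcnd3 was lower (-0.49, SE 0.08, adjusted p = 0.00365), as were Kcnj6 (-0.51, SE 0.10, 1.42-fold, adjusted p = 0.00978), Scn4b (-0.60, SE 0.14, adjusted p = 0.0272) and Cacna2d3 (-0.29, SE 0.07, adjusted p = 0.0249). Kcnab3 had a difference of -0.40 (adjusted p = 0.0421). Cacna1a, lower in both groups than at wild-type P30, had a difference of 0.03 here (SE 0.08, adjusted p = 0.893). With summed transcripts the calls of Kcna6 (adjusted p = 0.0734), Cacna2d3 (0.0704), Kcnab3 (0.0917) and Scn4b (0.0906) were lost. Kcnab3 also lost its call in limma-voom (0.0503). For Kcnd3 the call was lost only without P100 replicate 1 (adjusted p = 0.0606). Kcna6 and Cacna2d3 lost theirs with the omission of any 1 of the 4 libraries compared (0.0963 to 0.205 and 0.0892 to 0.163), and Kcng1 without P100 replicate 2 or either heterozygous library (0.0570 to 0.142). Kcnab3 lost it without the same 3 libraries (0.132 to 0.345), Kcnj6 without P100 replicate 2 or heterozygous replicate 1 (0.103 and 0.127), and Scn4b without P100 replicate 2 or heterozygous replicate 2 (0.242 and 0.199) and in DESeq2 (0.174). The counts were 0 higher and 2 lower without heterozygous replicate 1, 1 and 2 without heterozygous replicate 2, 1 and 1 without wild-type P100 replicate 2, and 1 and 4 without wild-type P100 replicate 1.

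Related genes outside the name rule were followed on a list of 40, of which 35 were tested. With age 1 of them rose and 5 fell, and in heterozygotes 4 fell. At the axon initial segment, where sodium channels are anchored, Ank3 (ankyrin-G) went from 646 and 634 CPM to 542 and 499 CPM with age and 481 and 545 CPM in heterozygotes (-0.30, adjusted p = 0.026, and -0.32, adjusted p = 0.0301). Nfasc, its adhesion partner, went from 263 and 299 CPM to 211 and 204 CPM and to 213 and 235 CPM (-0.44, adjusted p = 0.00465, and -0.33, adjusted p = 0.0363), and it is also expressed by oligodendrocytes, whose markers fell in both comparisons. Gem, whose small GTPase inhibits calcium channels and is induced by activity, fell from 3.29 and 7.72 CPM to 1.95 and 2.20 CPM and to 0.938 and 1.56 CPM (-1.44, adjusted p = 0.0312, and -2.16, adjusted p = 0.0082). Rem2, of the same GTPase family, fell with age from 2.37 and 2.36 CPM to 0.869 and 0.968 CPM (-1.36, SE 0.35, adjusted p = 0.0292). Unlike Gem, it was not lower in heterozygotes, at 3.15 and 2.67 CPM (0.30, SE 0.28, adjusted p = 0.640). Lrrc55, a BK channel gamma subunit gene, also fell with age (-0.42, adjusted p = 0.0379).

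Unc80, of the sodium leak channel complex, rose with age from 790.3 and 829 CPM to 960.1 and 937 CPM (0.23, SE 0.06, adjusted p = 0.0461). Kcna1 (Kv1.1) fell in heterozygotes, from 338 and 347 CPM to 278 and 288 CPM (-0.28, SE 0.06, 1.21-fold, adjusted p = 0.0287), with 350.4 and 347 CPM at wild-type P100. The Kv4 partner gene Dpp10 was at 236 and 284 CPM, 303 and 334 CPM, and 329 and 312 CPM, with differences of 0.29 and 0.30 (adjusted p = 0.0554 and 0.0773), while Dpp6 stayed at 197 to 215 CPM over the 6 libraries. Scn2a1, the gene of Nav1.2, was at 1046 to 1160 CPM (-0.01 and 0.09). Set against wild-type P100, heterozygous P30 libraries had 2 partner genes higher and 2 lower, where 2.44% and 2.66% of all genes tested were. Higher were Rem2 (1.66, adjusted p = 0.0102) and Fgf13 (0.36, adjusted p = 0.0360), and lower were Kcna1 (-0.30, adjusted p = 0.0140) and Unc80 (-0.30, adjusted p = 0.0155). Of the 16 alternatives, Rem2 lost this call under 3, Kcna1 under 4 and Unc80 under 5, and those for Fgf13 are not given here. For age, DESeq2 lost the calls of Gem (adjusted p = 0.0567), Lrrc55 (0.0703) and Rem2 (0.126), and limma-voom that of Gem (0.0613). Summed transcripts lost Gem (0.0608), Lrrc55 (0.0702) and Unc80 (0.0787) for age, and Ank3 (0.0648), Kcna1 (0.0735) and Nfasc (0.0735) for genotype. Only the 4 libraries compared lost Lrrc55 (0.0609) and Unc80 (0.0798) for age and Nfasc (0.0564) for genotype. Each partner call against wild-type P30 also depended on 1 or more libraries. For age, Nfasc lost its call without P100 replicate 2 (adjusted p = 0.0657), Ank3 without either wild-type P30 library or P100 replicate 2 (0.0618 to 0.194), Gem without P30 replicate 2 or either P100 library (0.152 to 0.385), Rem2 without any 1 of the 4 libraries compared (0.0856 to 0.149), Lrrc55 without either P30 library, P100 replicate 1 or heterozygous replicate 1 (0.0515 to 0.229), and Unc80 without any 1 of the 6 libraries (0.052 to 0.160). For genotype, Gem lost it without P30 replicate 2 (0.149) or heterozygous replicate 1 (0.0618), Ank3 without either P30 library or heterozygous replicate 1 (0.0767 to 0.374), Kcna1 without P30 replicate 2 or either heterozygous library (0.114 to 0.290), and Nfasc without P30 replicate 2, either P100 library or heterozygous replicate 1 (0.0583 to 0.361).

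The authors' deposited table of the age comparison had 3 of the 98 transcripts used here at an adjusted p under 0.05, those of Kcnd3 (log2 change 0.67), Cacna1a (-0.40) and Cacna1i (-0.39). All 13 genes called here had the same sign in the authors' deposited table. The deposited tables for age and genotype compare the same groups of this series, so neither is a separate test. For genotype, the authors' deposited table had 6 of 98 at that threshold, the same 6 genes as called here, with log2 changes of 1.26 for Kcnj2, -0.91 for Kcng4, -0.45 for Cacna2d3, -0.41 for Kcnip2 and -0.37 for Cacna1a among them.

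**Figure D5:**
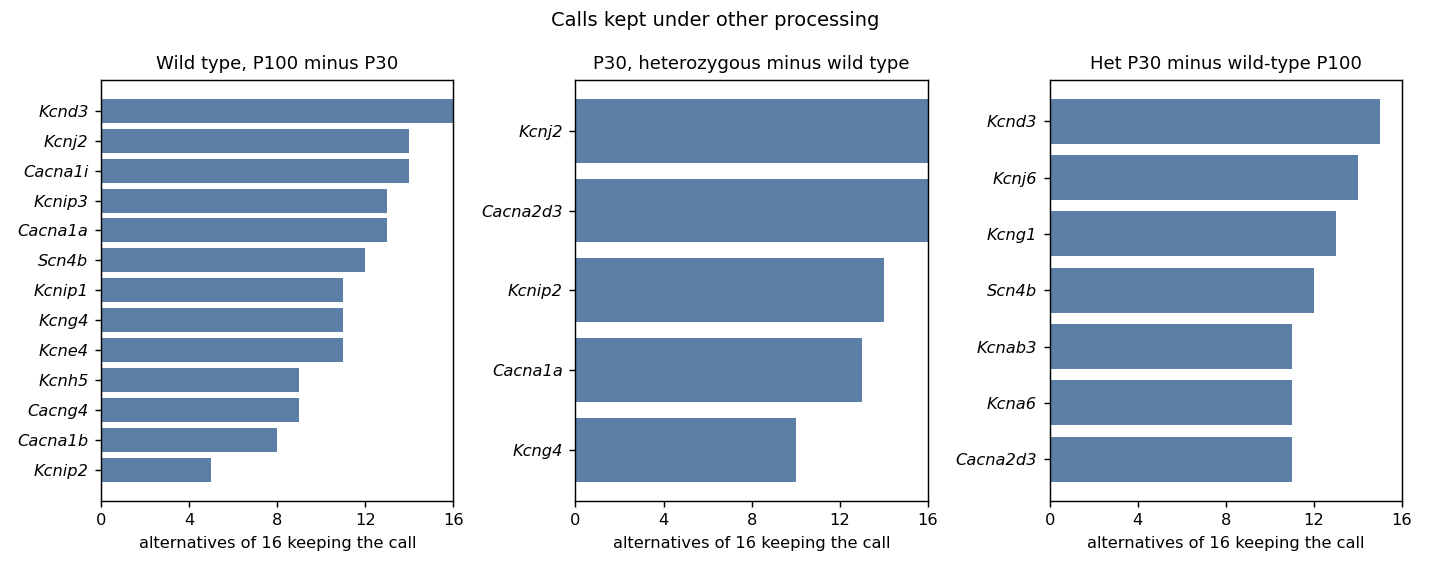
Number of the 16 alternatives of processing (horizontal axes, 0 to 16) under which each called channel gene shown kept an adjusted p under 0.05 in the same direction, for the 3 comparisons (panels). Kcnd3 for age and Kcnj2 and Cacna2d3 for genotype kept their calls under all 16, and Kcnip2 for age under 5.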

How the data were processed

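The authors deposited 1 table per library of unnormalized read counts over 95533 Ensembl transcripts, per the file headers. Bowtie, HTSeq, DESeq 1.8.3 and mm10 are named in the submitters' processing notes; settings, annotation release and strand use are not given in the sources used here, so reads from antisense overlaps cannot be assigned to a strand. The authors' deposited comparison tables hold, per the file headers, log2 fold changes and p-values with adjusted p-values, and are used only where named. Each gene was represented by its transcript with the highest total, and 9669 transcripts without a gene (13.96% of counts) were left out. Kcnb2 had 2 gene identifiers, and that with the higher total was used. Genes were kept by filterByExpr with a minimum count of 10 and a minimum total of 15. After TMM scaling, the quasi-likelihood test of edgeR 4.0.16 in R 4.3.3 was run with 1 factor of 3 groups over 6 libraries, 3 residual degrees of freedom, Benjamini-Hochberg over 15841 genes, threshold 0.05. Levels are TMM-scaled CPM. Coordinates and exon overlap came from GENCODE (GRCm38) and promoters from RefSeq. Duplicate libraries were not identical within counting error (chi-square 4.42 to 5.78 per degree of freedom). On simulated data with 200 changed genes among 15841, 65.7%, 70.1% and 93.9% of 1.5-fold, 2-fold and 4-fold changes were recovered for age, and 58.2%, 62.7% and 93.9% for genotype. Of the calls made there, 8.38% (age) and 8.33% (genotype) were false, above the 5% that the threshold sets. The 16 alternatives for single genes were scaling by upper quartile or RLE, the filter removed or set at CPM 1 in 2 libraries, limma-voom (limma 3.58.1), DESeq2 1.42.0, the newer edgeR fit, only the 4 libraries compared, a replicate block, counts summed over transcripts and the omission of each library; a member total of 1000 was tried for counts of genes. The channel genes, lists and tests were chosen with earlier results of these data known. Named with values are all channel genes past the threshold in the comparisons with wild-type P30, the 8 with the smallest p between heterozygous P30 and wild-type P100, the highest per length in each role, and listed partners past the threshold; any further gene was picked with its values in view. Results for some channel genes are not reported here, though they count in the totals.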

Additional observations from a re-analysis of the deposited data

How the results depend on the processing

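Counts of channel genes moved with the processing. Among named genes past the threshold in a comparison, none changed sign there under any of the 16 alternatives, with Fgf13 not examined. The alternatives reuse the same libraries, so a kept sign is no separate test of direction. For age (5 higher, 8 lower), DESeq2 gave 3 and 4, summed transcripts 2 lower, only the 4 libraries compared 4 lower, and genes with a total of 1000 or more 5 lower. Leaving out 1 library gave 1 to 5 higher and 2 to 7 lower. For genotype (1 higher, 5 lower), no filter gave 2 and 15, a replicate block 8 lower and summed transcripts 2 lower, and leaving out 1 library gave 1 higher and 2 to 6 lower. For heterozygous P30 against wild-type P100 (2 higher, 7 lower), no filter gave 7 higher, summed transcripts 1 higher and 2 lower, genes with a total of 1000 or more 1 higher, and leaving out 1 library 0 to 3 higher and 1 to 8 lower. The cause was not tested, apart from fewer libraries where 1 was left out. With 1 library left in a group, that library is assumed to vary like the others. Over all genes, no filter gave 764 higher and 1096 lower for age, 392 and 728 for genotype and 758 and 715 for the third comparison, DESeq2 gave 289 higher and 86 higher for age and genotype, and summed transcripts gave 297 higher for age, 71 and 192 for genotype and 246 and 256 for the third comparison. The labels give the groups the same replicate numbers but no shared source, and deviations of same-numbered libraries correlated at -0.00649 for the wild-type ages, 0.204 for the P30 genotypes and -0.00582 for heterozygous P30 and wild-type P100, across 11424 genes. The replicate block gave 6 higher and 8 lower for age, 1 and 8 for genotype, and 3 and 7 for the third comparison. Depth limits genes of a few CPM most, such as Kcne4, where 1 P100 library held 9 counts.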

Other observations

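A potassium channel gene outside the kept set marked the library with choroid plexus RNA. Kcnj13, an inward rectifier of the choroid plexus, had a total of 62 counts and so fell under the minimum: 53 were in heterozygous replicate 2, and the other libraries held 1, 3, 3, 1 and 1. The same library held 91 counts of Kcne2 (0 to 2 elsewhere), 73 counts of Otx2 (0 in the other libraries) and 8966 of Ttr. The 28 other genes under the minimum included the muscle form Scn4a (0 counts), the sensory neuron forms Scn10a (4) and Scn11a (2), the retinal form Cacna1f (23) and Kcnq1 (39).

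Per kilobase of transcript, levels were lowest for Hcn4 (0.269 CPM) among 97 channel genes, with a median of 12.3. The auxiliary genes Cacna2d1, Scn2b and Cacnb4, at 132, 103 and 73.4 CPM per kilobase, were above Kcnj9 (70.0), the highest pore gene among these 97. Pore genes outside the name rule were not ranked, among them the abundant Scn2a1 (mean 1088 CPM, transcript of 8935 bases).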
